A study of Mus musculus with 66 samples.

Results

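The genes described here encode the main cannabinoid receptor of the brain and the enzymes that make and break down its lipid ligands. They were chosen by name, as the rows of the gene expression table that carry the symbols Cnr1, Dagla, Daglb, Mgll, Faah, Napepld, Abhd6 and Abhd12, and they are 8 of 24138 genes in the table. The RNA came from punches of the ventral striatum, which holds the nucleus accumbens (NAcc), of male C57BL/6 mice aged 3 to 5 months and kept on a cycle of light and dark. Wild type (WT) mice and iMSN-D2RKO mice received an intraperitoneal injection of saline or of 20 mg/kg cocaine, a blocker of the dopamine transporter, at zeitgeber time 3 (ZT3, counted in hours from lights on), and tissue was taken every 4 h. ZT3, ZT7 and ZT11 fall in the light phase and ZT15, ZT19 and ZT23 in the dark phase. The iMSN-D2RKO mice carry 2 floxed alleles of Drd2, the gene of the dopamine D2 receptor (D2R), and a Cre recombinase driven by the promoter of the dopamine D1 receptor gene, which removes D2R from indirect pathway medium spiny neurons because their embryonic precursors express both receptors. The genotype of the WT mice beyond the words wild type is not given in the sources used here. Each genotype has 3 libraries at ZT3 that serve both treatments, and 3 libraries per treatment at each of the other 5 time points, which makes 66 libraries in 22 groups. The study describes the 3 libraries of a group as replicates at a time point, and the labels do not tie a library to an animal, so the p-values below measure the spread between libraries.

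Endocannabinoids are signalling lipids that travel backwards across the synapse. The receptor CB1, the product of Cnr1, sits mainly on axon terminals, where it couples to inhibitory G proteins and reduces transmitter release. The ligand 2-arachidonoylglycerol (2-AG) is made from diacylglycerol by the lipases of Dagla and Daglb, and is hydrolysed by the products of Mgll, Abhd6 and Abhd12. The ligand anandamide can be released from membrane lipids by the phospholipase of Napepld and is hydrolysed by the amide hydrolase of Faah. In the striatum, medium spiny neurons make 2-AG on demand, and CB1 on cortical and local terminals mediates several forms of synaptic depression.

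On mm10 (GRCm38.p6) the genes are spread over 6 chromosomes. Cnr1 lies at chr4:33923171-33948831 and Faah on the same chromosome at chr4:115996668-116018837. Daglb lies at chr5:143464484-143504442 and Napepld at chr5:21662901-21701622. Dagla lies at chr19:10245265-10304877, Mgll at chr6:88724412-88828360, Abhd6 at chr14:8002888-8056773 and Abhd12 at chr2:150832493-150904779. Promoter sequences from RefSeq on GRCm38.p6 were matched for 6 of the 8 genes, with 10 listed transcription starts, and Dagla and Abhd12 were not matched. The following 250 bases before a start are shown for the matched genes whose RNA passed the test of a daily rhythm below (Faah, Daglb, Abhd6) and for the starts of Cnr1 and Mgll whose window holds an E-box, the motif bound by the core clock activators. Each is written 5′ to 3′ on the strand of the gene, and capitals mark the E-box CACGTG.
Cnr1, second listed start, chr4:33924394-33924643, plus strand: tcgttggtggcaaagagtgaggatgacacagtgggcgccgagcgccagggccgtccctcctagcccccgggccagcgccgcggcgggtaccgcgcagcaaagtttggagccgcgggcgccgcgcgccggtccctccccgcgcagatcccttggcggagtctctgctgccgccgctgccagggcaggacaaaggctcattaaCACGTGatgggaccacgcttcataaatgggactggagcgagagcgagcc
Mgll, first listed start, chr6:88724162-88724411, plus strand: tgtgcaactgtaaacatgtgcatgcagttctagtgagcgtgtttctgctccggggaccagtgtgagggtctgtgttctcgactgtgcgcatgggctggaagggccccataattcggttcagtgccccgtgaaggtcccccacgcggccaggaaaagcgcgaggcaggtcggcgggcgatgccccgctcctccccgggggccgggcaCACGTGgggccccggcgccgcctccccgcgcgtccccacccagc
Faah, chr4:116017925-116018174, minus strand: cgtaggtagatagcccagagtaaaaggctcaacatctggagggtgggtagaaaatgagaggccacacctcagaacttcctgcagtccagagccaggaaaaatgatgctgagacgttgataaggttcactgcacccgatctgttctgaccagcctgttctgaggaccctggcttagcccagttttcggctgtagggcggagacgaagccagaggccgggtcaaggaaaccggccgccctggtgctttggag
Daglb, chr5:143464243-143464492, plus strand: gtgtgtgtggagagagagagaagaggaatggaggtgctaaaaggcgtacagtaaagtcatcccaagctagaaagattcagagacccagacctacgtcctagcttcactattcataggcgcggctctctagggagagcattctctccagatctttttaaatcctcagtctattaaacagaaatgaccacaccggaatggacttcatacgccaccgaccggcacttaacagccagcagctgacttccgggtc
Abhd6, first listed start, chr14:8002638-8002887, plus strand: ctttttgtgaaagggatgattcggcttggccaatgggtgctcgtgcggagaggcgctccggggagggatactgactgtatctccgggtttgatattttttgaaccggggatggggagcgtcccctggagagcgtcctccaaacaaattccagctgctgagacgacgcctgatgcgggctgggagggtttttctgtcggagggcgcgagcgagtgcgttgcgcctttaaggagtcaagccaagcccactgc

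The E-box lay 49 to 44 bases before the second listed start of Cnr1 and 44 to 39 bases before the first of Mgll. It was present in 2 of the 10 member windows and in 6.02% of 32851 mouse promoter windows of the same length. Its letters read the same on both strands. The D-box TTATGTAA (0.819% of all windows), the cyclic AMP response element TGACGTCA (1.55%), the REV-ERB and ROR site TAGGTCA (2.23%), the PPAR response element AGGTCANAGGTCA (0.0335%) and the SP/KLF site GGGCGGGG (16.1%), searched on both strands, had no match in the member windows. The GC content of the windows shown ran from 49.2% in Daglb to 68.8% in Cnr1.

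Abhd12 had the highest level and Napepld the lowest. Levels are given in FPKM (fragments per kilobase of transcript, scaled to the mapped fragments of the library), which is per length and can be set side by side between genes. Of the 24138 genes, 14643 reached 1 FPKM in at least 1 library and were tested, all 8 members among them. The mean ± SD over the 66 libraries was 158 ± 27.4 FPKM for Abhd12, 45.4 ± 10.6 for Mgll, 33.8 ± 12.5 for Cnr1 and 21.2 ± 6.67 for Dagla. It was 20.1 ± 2.24 FPKM for Abhd6, 10.1 ± 1.79 for Daglb, 7.49 ± 2.12 for Faah and 2.44 ± 1.06 for Napepld. By mean FPKM, Abhd12 stood at percentile 97.3 of the tested genes and Napepld at percentile 22.3. In a bulk sample, a lower level from fewer cells of a type and one from less RNA per cell cannot be told apart.

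Most of this order held library by library. Abhd12 was above Mgll, Abhd6 above Daglb and Faah above Napepld in 66 of 66 libraries. Cnr1 was above Dagla in 60, Daglb above Faah in 58 and Mgll above Cnr1 in 51 of the 66. Dagla and Abhd6 were not separated, with Dagla higher in 44 of 66 libraries and in 14 of 22 group means. The 3 hydrolases of 2-AG thus differed widely in level, and of the paired lipases Dagla was above Daglb in its mean by 21.2 to 10.1 FPKM.

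The genes also differed in how much they varied. The coefficient of variation over all libraries was 43.2% for Napepld, 37.0% for Cnr1, 31.4% for Dagla, 28.3% for Faah, 23.4% for Mgll, 17.7% for Daglb, 17.4% for Abhd12 and 11.1% for Abhd6. The ratio of the highest to the lowest group mean was 2.88 for Dagla, from 12.05 FPKM in WT at ZT19 after cocaine to 34.7 FPKM in WT at ZT15 after cocaine. The upper of these groups held the values 27.7, 21.9 and 54.5 FPKM, so that 1 library set its mean. For Abhd6 the same ratio was 1.33, from 17.3 FPKM in iMSN-D2RKO at ZT7 after cocaine to 22.99 FPKM in iMSN-D2RKO at ZT15 after saline. For all 8 genes, the SD between libraries of a group was at least as large as the SD between the 22 group means on the log2(FPKM + 1) scale. It was 0.45 against 0.25 for Cnr1, 0.35 against 0.32 for Dagla, 0.28 against 0.26 for Faah and 0.122 against 0.121 for Abhd6. These measures are unlike, since a mean of 3 libraries varies less than a single library. Their order therefore does not show whether the groups differ.

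**Figure D1:**
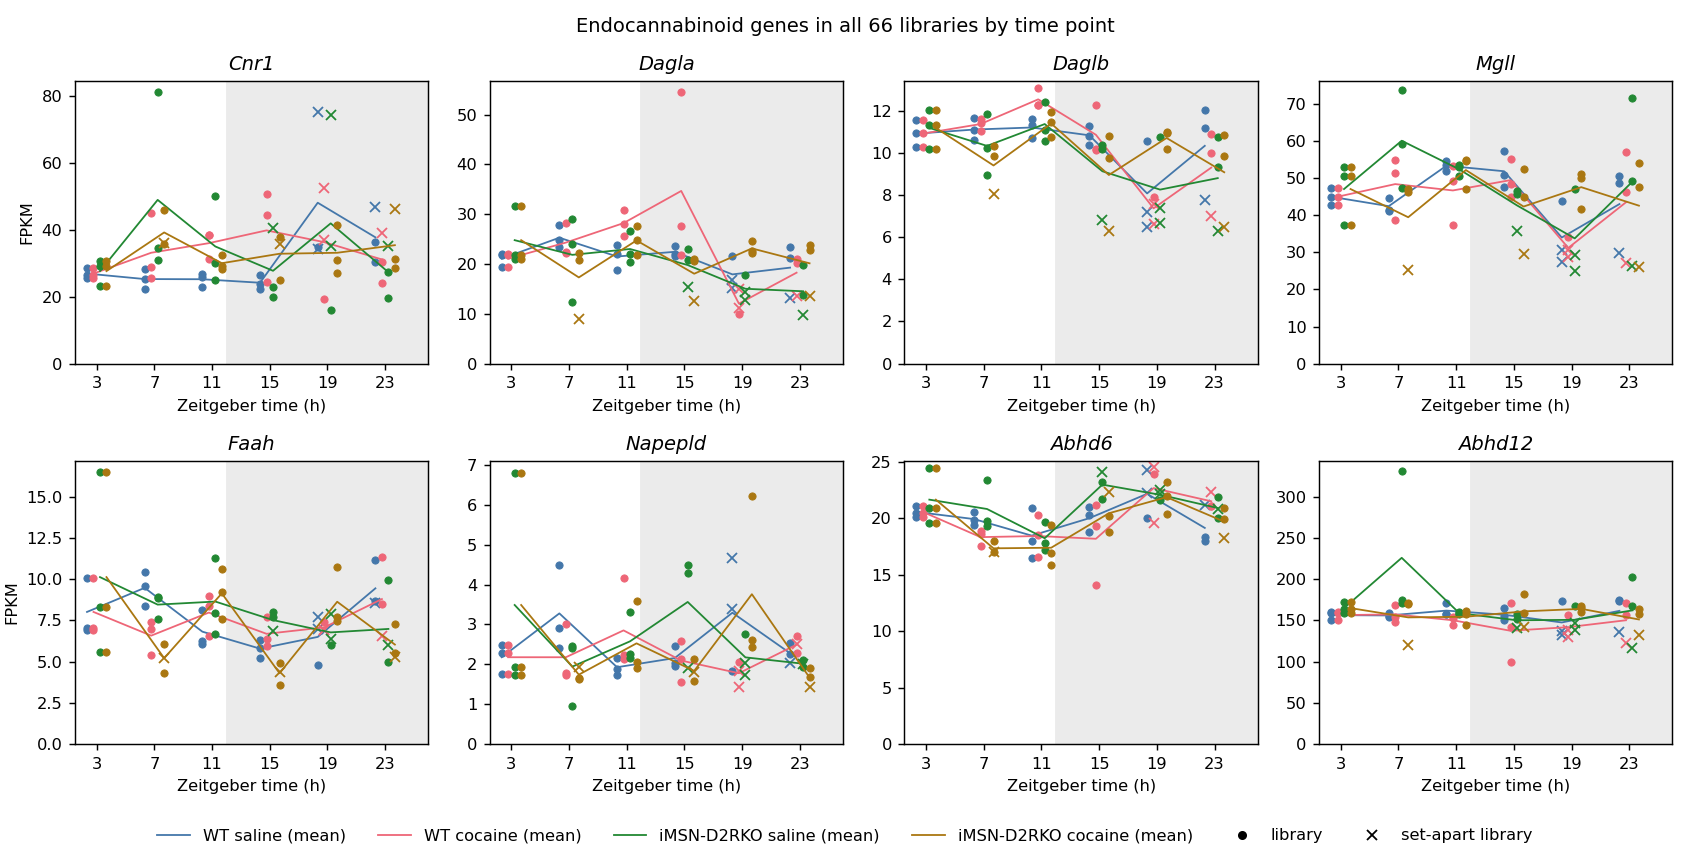
FPKM of each gene (y axes, each starting at 0) against zeitgeber time in hours (x axes), with points for single libraries, crosses for the 13 set-apart libraries and lines for the means of the 4 series; the dark phase is shaded. The spread within a time point is as wide as most differences between time points, and the crosses lie low for Mgll and Daglb, at 25.0 to 35.7 and 6.28 to 8.04 FPKM.

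Some libraries stood apart from the rest of their groups, and this touched the members. Total FPKM ran from 364078 to 690048 per library with a median of 396432.5, and 12496 to 13028 genes reached 1 FPKM. The leading principal component of the within-group deviations, called the first axis below and computed over 9584 genes with a mean of at least 5 FPKM, held 43.6% of their variance and placed 13 libraries at scores of 44.3 to 56.1 and the other 53 at -35.9 to 15.1. Of the 13, 12 were taken in the dark phase and 1 in the light phase, 6 were WT and 7 iMSN-D2RKO, and 7 had received saline and 6 cocaine. Beside them, iMSN-D2RKO replicate 1 at ZT7 after saline had the highest total (690048, against 465297 for the next library), and WT replicate 3 at ZT15 after cocaine the lowest (364078). Drd2, the targeted gene, did not separate the genotypes: it ran from 99.1 to 304 FPKM (median 129) in WT and from 78.0 to 375 FPKM (median 112) in the libraries labelled iMSN-D2RKO, a log2 difference of -0.13 (SE 0.12, adjusted p = 0.772, limma). Without the 13 libraries, the medians were 121 and 107 FPKM. The gene-level value counts all exons, so it checks the label only in part, and genotype is used below as labelled. The marker genes of spiny projection neurons were present in all libraries (10 of 10 genes above 1 FPKM on average, summed level 2540 to 15644 FPKM), and those of cortical projection neurons summed to 4.37 to 303 FPKM.

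In the 13 set-apart libraries 4 of the 5 enzymes of 2-AG were low, Abhd6 being the exception, and the receptor was high. The comparison was made in the 10 groups that hold libraries of both kinds, on the log2(FPKM + 1) scale, and it is a description, since the libraries were set apart by their values. Mgll was lower in 10 of 10 groups with a mean difference of -0.72, Daglb in 10 of 10 with -0.49, Abhd12 in 10 of 10 with -0.34, and Dagla in 9 of 10 with -0.55. Cnr1 was lower in only 1 of 10, with a mean difference of 0.64. Among all tested genes, these mean differences stood at percentile 7.76 for Mgll, 14.7 for Daglb, 21.6 for Abhd12, 12.6 for Dagla and 87.2 for Cnr1. Many other genes thus had shifts as large. Faah (-0.06), Napepld (-0.09) and Abhd6 (0.05) had mean differences near 0 and were lower in 6, 7 and 4 of the 10 groups. Daglb was at 6.28 to 8.04 FPKM in the 13 libraries and at 7.91 to 13.1 FPKM in the other 53, so that the ranges overlapped only between 7.91 and 8.04 FPKM. Mgll was at 25.0 to 35.7 FPKM in the 13 and at 34.3 to 73.8 FPKM in the others.

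**Figure D2:**
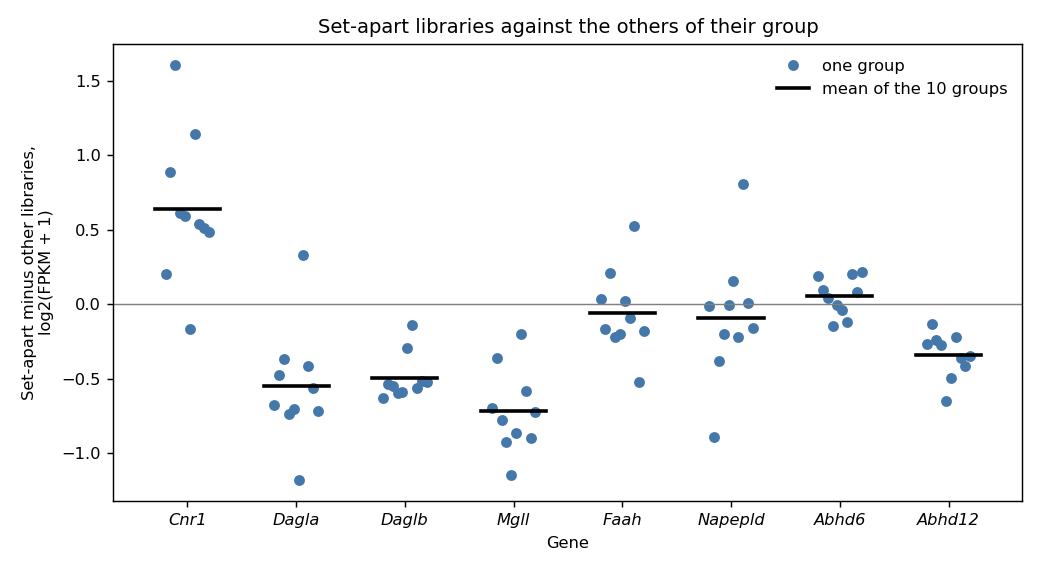
Difference between set-apart and other libraries of the same group in log2(FPKM + 1) (y axis) for each gene (x axis), with a point for each of the 10 mixed groups and a bar for their mean. Mgll, Daglb and Abhd12 are below 0 in all 10 groups, and Cnr1 is above 0 in all but 1.

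No change of the 8 genes after cocaine passed the test. The question was whether the drug, given at ZT3, altered the RNA of the receptor and its enzymes over the following cycle. In WT, the mean difference over ZT7 to ZT23 called 0 of 8 members at an adjusted p under 0.05 (limma on log2(FPKM + 1), all 66 libraries in one fit, adjusted over all genes tested), where 0.0137% of all genes were called, and 0 of 8 had an unadjusted p under 0.05. In iMSN-D2RKO, 0 of 8 members were called, where 0% of all genes were. An unadjusted p under 0.05 was found for 2.49% of all genes in WT and 4.86% in iMSN-D2RKO, where it was found for 2 members. These were Abhd6 with a log2 difference of -0.12 (SE 0.05, 95% interval -0.21 to -0.02, adjusted p = 0.910) and Faah with -0.21 (SE 0.10, interval -0.41 to -0.01, adjusted p = 0.910). The median difference of the 8 genes was -0.015 in WT and -0.069 in iMSN-D2RKO, beside medians of 0 and -0.0079 over all tested genes.

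The intervals bound how large a mean change could have been. For the receptor, Cnr1 stood at 35.3 FPKM after cocaine and 32.1 FPKM after saline in WT, with a log2 difference of 0.16 (interval -0.16 to 0.48), and at 34.1 and 36.2 FPKM in iMSN-D2RKO, with 0.04 (-0.28 to 0.36). In iMSN-D2RKO the order differs between the scales, since single saline libraries at 81.2 and 74.3 FPKM weigh more in a mean of FPKM than in one of log2 values. Abhd6 had the narrowest interval in WT, -0.11 to 0.08, and Cnr1 the widest. The difference between the cocaine effects of the 2 genotypes was tested directly, and 0 of 8 members were called (0% of all genes). In that test 0 of 8 members had an unadjusted p under 0.05, and the differences ran from -0.20 for Faah (interval -0.48 to 0.09) to 0.09 for Dagla (-0.26 to 0.45).

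At the single time points none of the 8 members was called in any of the 10 comparisons. The share of all genes called was 0.00683% in WT at ZT7 and at ZT15, 0.0205% in WT at ZT19, 0.0137% in iMSN-D2RKO at ZT7 and 0% in the other 6. Members had an unadjusted p under 0.05 in 10 cases (limma). The share of all genes with such a p ran from 0.41% in iMSN-D2RKO at ZT11 to 22.9% in iMSN-D2RKO at ZT7. The lowest unadjusted p-value fell on the hydrolase of anandamide. Faah in iMSN-D2RKO at ZT15 was at 3.59, 4.93 and 4.35 FPKM after cocaine and at 8.01, 6.86 and 7.68 FPKM after saline. The 3 cocaine libraries were below the 3 saline libraries, with a log2 difference of -0.69 (SE 0.22, interval -1.14 to -0.25, unadjusted p = 0.00314, adjusted p = 1.0 in limma). Cocaine replicate 3 (4.35 FPKM) and saline replicate 2 (6.86 FPKM) were set apart. In this comparison 1.49% of all genes had an unadjusted p under 0.05. In the same genotype at ZT7, Faah was at 4.33, 5.21 and 6.06 FPKM after cocaine and at 8.90, 7.60 and 8.87 FPKM after saline. The difference was -0.61 (SE 0.22, adjusted p = 0.130), in a comparison where 22.9% of all genes had an unadjusted p under 0.05. Cocaine replicate 2 (5.21 FPKM) was set apart, and saline replicate 1 (8.90 FPKM) had the highest total FPKM. At ZT11 and ZT19 the order of the means was the other way, at 9.14 against 8.64 and 8.63 against 6.77 FPKM, so that the difference was not kept across the series. In WT at ZT7, Faah was at 6.95, 5.39 and 7.38 FPKM after cocaine and 8.37, 9.60 and 10.4 FPKM after saline (difference -0.47, adjusted p = 1.0).

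The low p-values of the other members at single times were all found in comparisons that hold libraries that stand apart. In iMSN-D2RKO at ZT7, Mgll (-0.62, adjusted p = 0.174), Abhd12 (-0.50, adjusted p = 0.125) and Abhd6 (-0.25, adjusted p = 0.179) had unadjusted p-values under 0.05, where 22.9% of all genes did. One saline library of this comparison, replicate 1, held the highest Mgll and Abhd12 of the series (73.8 and 332 FPKM), and one cocaine library, replicate 2, was among the 13 set-apart ones (Mgll 25.2, Abhd12 120 FPKM). In iMSN-D2RKO at ZT19, Dagla was at 22.6, 22.2 and 24.6 FPKM after cocaine and 14.4, 17.8 and 12.9 FPKM after saline (0.60, adjusted p = 0.304). The 2 lower of these saline values came from set-apart libraries. Daglb had a difference of 0.36 there (adjusted p = 0.304). Napepld had unadjusted p-values under 0.05 in WT at ZT19 (-0.58, adjusted p = 0.951) and in iMSN-D2RKO at ZT15 (-0.64, adjusted p = 1.0). In WT at ZT19 it was at 1.43, 2.06 and 1.84 FPKM after cocaine and at 4.66, 3.38 and 1.84 FPKM after saline, where the 2 higher saline values came from set-apart libraries. In iMSN-D2RKO at ZT15 it was at 1.57, 2.12 and 1.80 FPKM after cocaine and at 4.49, 1.91 and 4.29 FPKM after saline, where the set-apart saline library held the lowest of the saline values. The low level of Napepld, 2.44 FPKM on average, makes a difference on the log2(FPKM + 1) scale smaller than the change in FPKM.

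No member was called between the genotypes either. At ZT3, 0 of 8 members were called between the libraries labelled iMSN-D2RKO and WT (0.041% of all genes). After saline the count was 0 of 8 (0.212%), after cocaine 0 of 8 (0.109%) and over the 11 matched pairs of groups 0 of 8 (1.56%). In each of these 4 limma tests, 0 of 8 members had an unadjusted p under 0.05, where 2.04%, 11.3%, 4.95% and 12.7% of all genes did. In the mean over all pairs, Cnr1 stood at 34.5 FPKM in the libraries labelled iMSN-D2RKO and 33.1 FPKM in WT, a log2 difference of 0.04 (SE 0.11, interval -0.18 to 0.26, adjusted p = 0.935). The lowest unadjusted p was that of Abhd12, with 163 against 152 FPKM and a difference of 0.09 (SE 0.05, interval -0.02 to 0.19, adjusted p = 0.550). Dagla had -0.12 (interval -0.29 to 0.05) and Abhd6 0.03 (-0.04 to 0.09). At ZT3, Faah was at 8.30, 16.5 and 5.57 FPKM and Napepld at 1.92, 6.80 and 1.74 FPKM in iMSN-D2RKO, where replicate 2 was the highest library of all 66 for both genes.

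**Figure D3:**
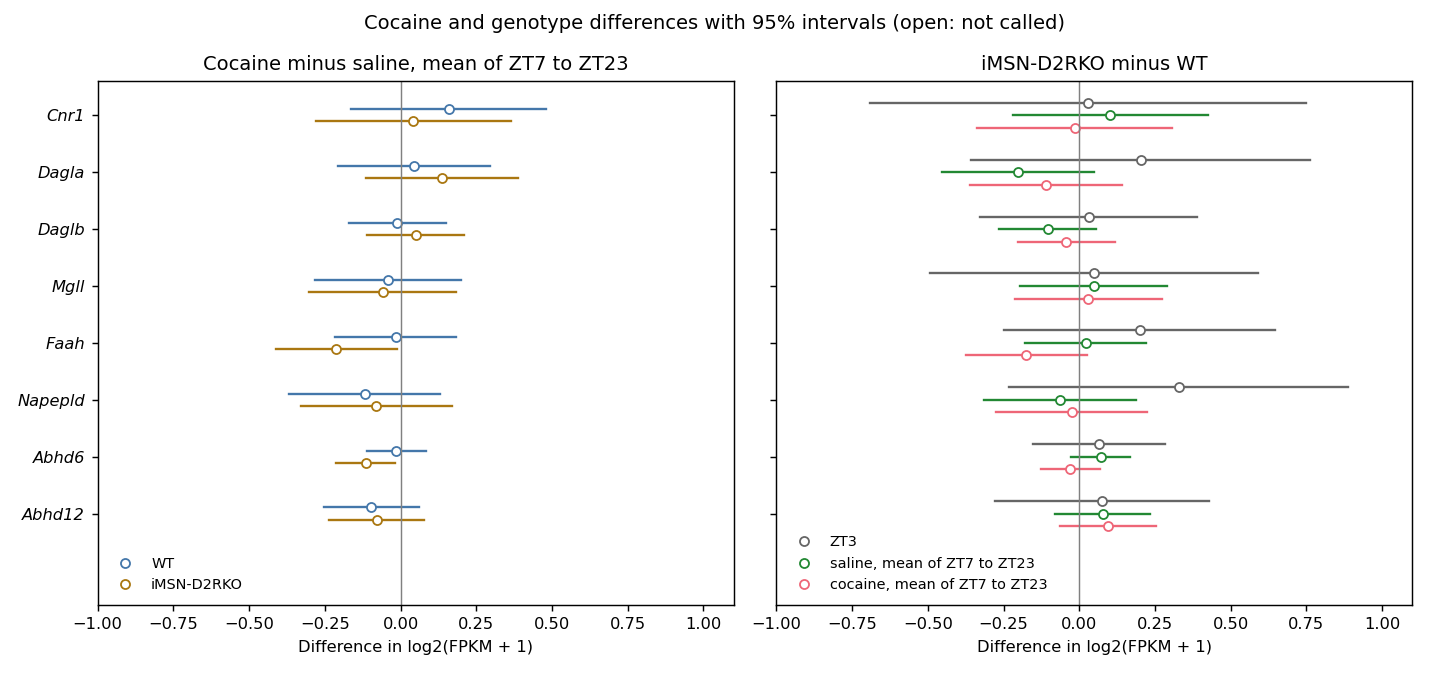
Differences in log2(FPKM + 1) (x axes) for each gene (y axes) with 95% intervals, cocaine minus saline on the left in each genotype and iMSN-D2RKO minus WT on the right. The symbols are open because none of the 8 genes was called in any of these comparisons.

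Dark and light phase levels were compared within each of the 4 series as the mean of ZT15, ZT19 and ZT23 minus the mean of ZT7 and ZT11. Daglb, the second diacylglycerol lipase, was lower in the dark in WT after cocaine, and this was the one call in the 4 series. By series, 0 of 8 members were called in WT after saline (0.0615% of all genes), 1 of 8 in WT after cocaine (5.72%), 0 of 8 in iMSN-D2RKO after saline (9.38%) and 0 of 8 in iMSN-D2RKO after cocaine (0.239%). The number of members with an unadjusted p under 0.05 was 0, 3, 5 and 1 in the same order (limma). Over all genes the share was 19.7%, 29.6%, 37.8% and 5.7%.

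For Daglb in WT after cocaine, the 6 light libraries ran from 11.1 to 13.1 FPKM with a median of 11.9, and the 9 dark libraries from 6.65 to 12.3 FPKM with a median of 10.002. The dark values spread over a wider range and overlapped the light ones, and the 3 set-apart libraries of this series, all dark, were at 6.65, 7.55 and 6.998 FPKM. The log2 difference was -0.37 (SE 0.11, interval -0.60 to -0.14, adjusted p = 0.0452). Without the 13 libraries, which left 1 library at ZT19, it was -0.28 (interval -0.41 to -0.16). With the score on the first axis as a covariate it was -0.15 (adjusted p = 0.171). The astrocyte marker genes summed to 418 to 476 FPKM (median 432) in the light and 376 to 611 FPKM (median 519) in the dark libraries of this series, with a dark median of 498 without the set-apart ones, and their part in the difference was not tested. The adjusted p rose to between 0.0560 and 0.147 when a single library was left out, for each of the 6 light libraries, replicates 2 and 3 at ZT15, replicates 1 and 3 at ZT19 and replicate 3 at ZT23. Dagla had a difference of the same sign, with 22.2 to 30.9 FPKM (median 26.9) in the light and 10.1 to 54.5 FPKM (median 20.3) in the dark and a difference of -0.43 (interval -0.79 to -0.07, adjusted p = 0.113). WT replicate 3 at ZT15 held the value of 54.5 FPKM. Without the 13 set-apart libraries and 2 extreme ones (this library and iMSN-D2RKO replicate 1 at ZT7 after saline), the difference of Dagla was -0.57 (interval -0.77 to -0.36, adjusted p = 5.1e-05) and that of Daglb -0.27 (adjusted p = 3.1e-04), where 34.9% of all genes were called.

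In iMSN-D2RKO after saline, 5 members had an unadjusted p under 0.05, where 37.8% of all genes did, and none was called. Their differences were -0.48 for Mgll (adjusted p = 0.0607), -0.30 for Daglb (0.0672), -0.42 for Dagla (0.0908), -0.27 for Abhd12 (0.0841) and 0.17 for Abhd6 (0.0851). This series holds 4 set-apart libraries in the dark and none in the light. The astrocyte marker genes (6 of 6 above 1 FPKM), which were higher in the set-apart libraries (530 to 622 FPKM in sum, 320 to 611 in the others), summed to 337 to 480 FPKM in its light and 320 to 599 FPKM in its dark libraries, and their part in the differences was not tested. Without the 13 libraries none of these 5 genes was called.

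Cnr1 was called in their place, with 1 library left at ZT19. The 13 were set apart on an axis that Cnr1 itself followed (correlation 0.63 within groups). Those of this series were dark and high in Cnr1, so leaving them out lowers its dark level by construction. The p-value without them is therefore a description. In iMSN-D2RKO after saline, the 6 light libraries held 30.9, 34.7 and 81.2 FPKM at ZT7 and 50.0, 24.9 and 30.1 FPKM at ZT11. The 5 dark libraries outside the 13 held 19.9 and 22.9 FPKM at ZT15, 16.2 FPKM at ZT19 and 27.2 and 19.5 FPKM at ZT23. Of these 5, 4 were below the 6 light values. The log2 difference was -0.92 (SE 0.20, interval -1.32 to -0.51, adjusted p = 0.0368, 0.222% of all genes called), against -0.39 (interval -0.86 to 0.07, adjusted p = 0.196) with all libraries, where the 4 set-apart dark libraries held 35.2 to 74.3 FPKM. The marker genes of the ventral striatum (Crym, Wfs1, Dlk1, Cartpt and Nnat, 5 of 5 above 1 FPKM) ran the other way. They were at 395 to 793 FPKM in sum in the light and 748 to 978 FPKM in the 5 dark libraries, and their part in the difference was not tested. In WT after saline the 6 dark libraries outside the 13 held 22.3 to 36.2 FPKM of Cnr1 and the light ones 22.3 to 28.3 FPKM.

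Abhd6 was not called in iMSN-D2RKO after cocaine, with a dark minus light difference of 0.24 (SE 0.07, interval 0.10 to 0.38) and an adjusted p of 0.172 over all genes (limma). Its 6 light libraries ran from 15.9 to 19.4 FPKM (median 17.0) and its 9 dark libraries from 18.3 to 23.2 FPKM (median 20.4), so the groups met only at their edges. Without the 13 set-apart and the 2 extreme libraries, the difference was 0.23 with an adjusted p of 0.0281 (3.16% of all genes called). The difference between series in the size of these dark and light contrasts was tested as well, as a comparison added after seeing the data. With all libraries, 0 of 8 members were called between genotypes or between treatments (0% of all genes in each of the 4 tests), and the one member with an unadjusted p under 0.05 was Cnr1 between genotypes after saline (-0.83, SE 0.33, adjusted p = 0.994).

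**Figure D4:**
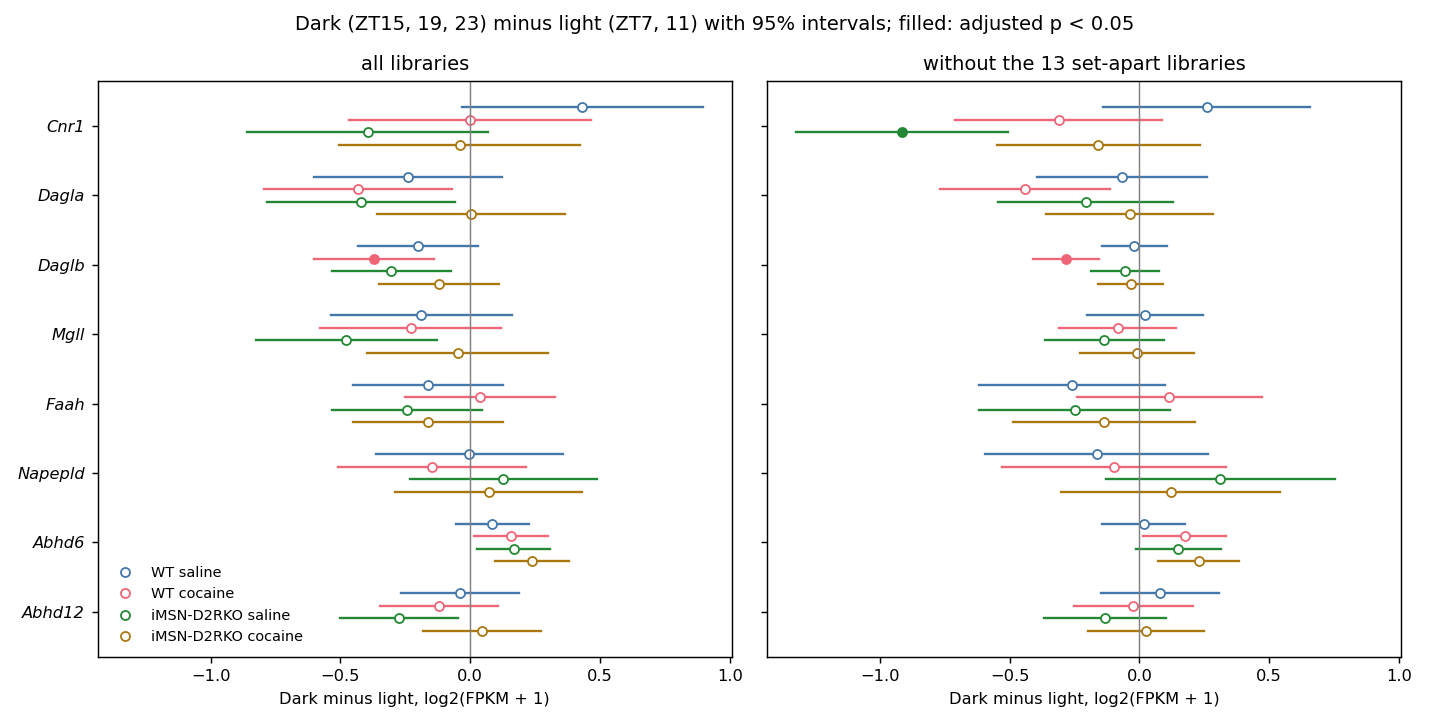
Dark minus light difference in log2(FPKM + 1) (x axes) for each gene (y axes) in the 4 series with 95% intervals, with all 66 libraries on the left and without the 13 set-apart libraries on the right. Filled symbols mark an adjusted p under 0.05, which are Daglb in WT after cocaine on both sides and Cnr1 in iMSN-D2RKO after saline on the right. The 13 libraries were set apart by their values, so the right side is a description.

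Rhythm was tested with JTK_CYCLE, a rank test against cosine orders, over the 18 libraries of a series with periods of 20 and 24 h and a call at a corrected exact p under 0.01. Dixon's outlier test could leave out 1 library per time point. In all, 4 of the genes were called, each in a single series. In WT after saline 1 of 8 members was called, Faah, where 9.81% of all genes were. In WT after cocaine 2 of 8 were called, Dagla and Daglb, where 7.61% of all genes were. In iMSN-D2RKO the count was 0 of 8 after saline (2.58% of all genes) and 1 of 8 after cocaine, Abhd6 (1.1%). The saline and cocaine series of a genotype share their ZT3 libraries.

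Faah in WT after saline was at 6.90, 10.1 and 7.06 FPKM at ZT3, 8.37, 9.60 and 10.4 FPKM at ZT7 and 6.24, 6.04 and 8.15 FPKM at ZT11. It was at 5.81, 6.33 and 5.21 FPKM at ZT15, 7.72, 6.96 and 4.80 FPKM at ZT19 and 8.54, 11.1 and 8.65 FPKM at ZT23. The levels were thus low in the early dark and high around the end of the dark and at ZT7, with a ratio of 1.64 between the highest and lowest time point means, a period of 20 h, a phase of 4 h after ZT3 and a corrected exact p of 0.00371. Without the 13 libraries p was 0.00811, and it rose to 0.0108 without replicate 3 at ZT7 or without replicate 1 or 3 at ZT15. After cocaine the WT means of Faah ran from 6.57 FPKM at ZT7 to 8.79 FPKM at ZT23 and its p was 1.0.

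The lipases of 2-AG were rhythmic in WT after cocaine. Daglb had means of 10.9, 11.4, 12.5, 10.9, 7.37 and 9.30 FPKM from ZT3 to ZT23 (ratio 1.70, period 24 h, phase 6 h after ZT3, corrected exact p = 9.31e-04, with 2 of the 18 libraries left out as outliers). Dagla had means of 21.1, 24.3, 28.2, 34.7, 12.05 and 18.3 FPKM (ratio 2.88, period 20 h, phase 8 h, corrected exact p = 0.00115). Both fell to their lowest level at ZT19, where the values were 6.65, 7.91 and 7.55 FPKM for Daglb and 11.1, 10.1 and 14.996 FPKM for Dagla. Replicates 1 and 3 of these libraries were among the 13, and replicate 2 was not and had 7.91 and 10.1 FPKM. Replicate 2 had the highest score on the first axis of the other 53 libraries (15.1). Without the 13 libraries p was 0.0196 for Dagla and 0.0287 for Daglb, and neither was called.

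Abhd6 in iMSN-D2RKO after cocaine was lowest at ZT7 and ZT11 and highest at ZT19 and ZT3, with means of 21.7, 17.3, 17.4, 20.5, 21.9 and 19.7 FPKM from ZT3 to ZT23 (ratio 1.26, period 20 h, phase 18 h after ZT3, corrected exact p = 0.00371). Without the 13 libraries p was 0.00243, while it rose to 0.0108 without any 1 of the 3 libraries at ZT7 or without replicate 3 at ZT19, and to 0.0154 without replicate 1 or 2 at ZT11. With the 13 left out Cnr1 was called in iMSN-D2RKO after saline (corrected exact p = 0.00234, phase 6 h, 1.19% of all genes called), which it was not with all libraries (p = 1.0). This call is a description too, since the libraries left out were set apart on an axis that Cnr1 followed. In WT after saline Cnr1 had a corrected exact p of 0.0216 over 17 of the 18 libraries, with its highest mean, 48.1 FPKM, at ZT19, where 2 of the 3 libraries, at 75.1 and 34.4 FPKM, were set apart.

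A rhythm called in one series and not in another was not shown to differ. The interaction of treatment or of genotype with a 24 h cosine was called for 0 of 8 members in each of 4 limma tests (0% of all genes). Unadjusted p-values under 0.05 were found between treatments in WT for Faah and Cnr1 (adjusted p = 1.0 for both), and between genotypes after saline for Cnr1 (adjusted p = 0.975). Of all genes, 1.38% and 2.48% had such a p-value in these tests, in that order. For the lipases, the interaction with treatment in WT had an adjusted p of 1.0 for both Dagla and Daglb.

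Dagla and Daglb, which encode the enzymes of the same reaction, had similar profiles. Over the 22 group means their Pearson correlation on the log2 scale was 0.87, and 0.82 without the 13 libraries, the highest of the 28 pairs of members. Daglb and Mgll had 0.79, which was 0.41 without the 13. Abhd6 ran against both lipases (-0.50 with Dagla and -0.61 with Daglb, and -0.62 with each without the 13), and Faah and Napepld had 0.55 in both settings. These correlations are descriptions, and both genes of a pair are read from the same libraries and so share their depth and dissection, which may differ between libraries.

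Among the genes with a mean of at least 5 FPKM, those most like each member over the 22 group means were found by the same correlation. For Dagla these were Adgrl1 (r = 0.97), Pgbd5 (0.96) and Mgat5b (0.96), and for Daglb Tcta (0.97), Cyb561 (0.96) and Mcrs1 (0.96). Mgll was most like Pik3r2 (0.95), Fbxo31 (0.94) and Sin3b (0.94), and Abhd12 most like Tomm22 (0.93), Eif3d (0.93) and Fis1 (0.92). Faah was most like Necab3 (0.92), Rtn4r (0.92) and St8sia5 (0.91). Napepld was most like Adarb1 (0.92), Rgs16 (0.90) and Prkcd (0.89). Cnr1 (Ttll11 at 0.87, Acvr1 and Rgs7bp at 0.79) and Abhd6 (Ina and Eif1b at 0.82, Gdf11 at 0.81) had the least close partners. With the 13 libraries left out, the correlations of these 24 pairs were between 0.74 and 0.96.

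Levels of the receptor and of several enzymes varied with the marker genes of other cells and of the ventral striatum. Within groups, over 66 libraries, the deviations of Cnr1 from its group mean had a correlation of -0.82 with those of the summed ventral striatum markers, and -0.75 over the 53 libraries outside the set-apart ones. Mgll had -0.81 with the astrocyte markers (-0.73 over the 53) and Abhd12 -0.86 (-0.81). Napepld had 0.56 with the oligodendrocyte markers (0.59) and -0.58 with the spiny projection neuron markers (-0.63). Dagla had -0.77 with the markers of striatal interneurons (-0.73) and Daglb -0.70 with those of astrocytes (-0.50). Abhd6 had 0.53 with the interneuron markers (0.58) and 0.49 with those of endothelial cells (0.58). For Faah the largest in size was 0.37, with the cortical projection neuron markers (0.42). The sums weigh abundant genes most, such as Sst (mean 985 FPKM) among the interneuron markers. With the score on the first axis, Mgll and Daglb each had -0.88 within groups. These are descriptions over libraries that share their normalization, and no part of the group differences was assigned to cell makeup.

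**Figure D5:**
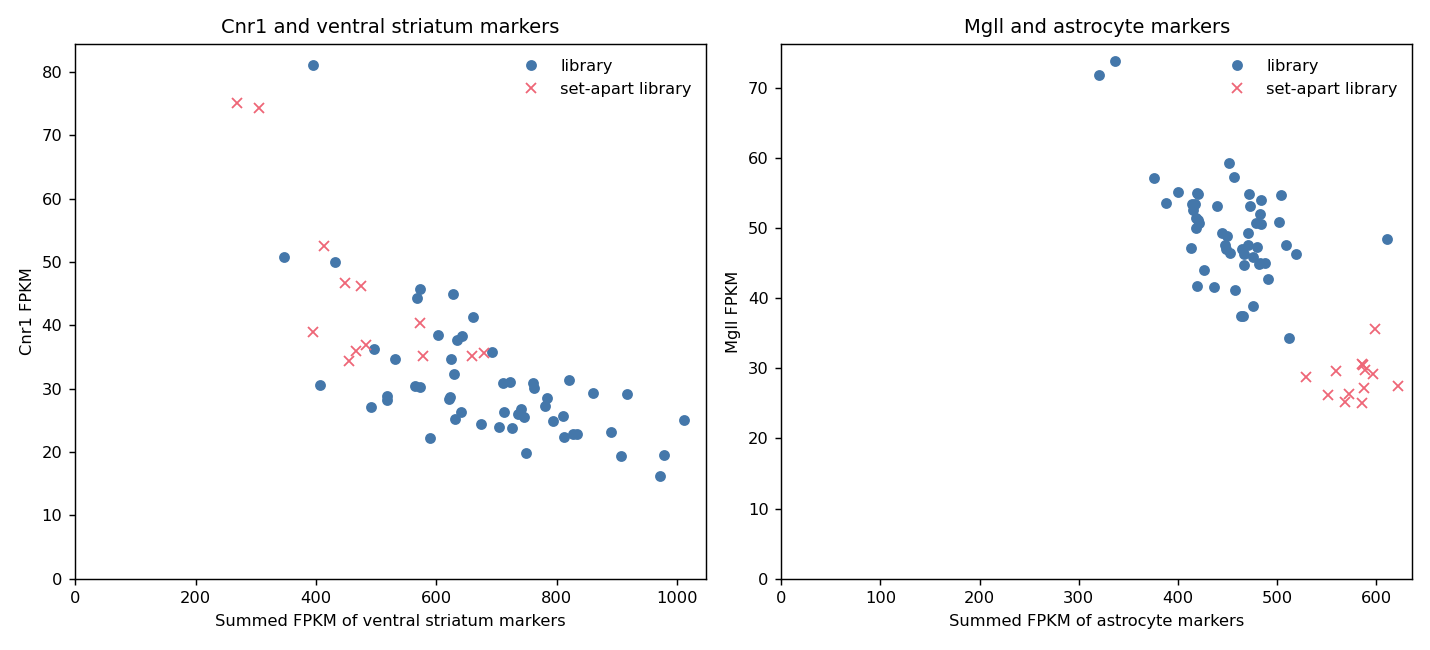
FPKM of Cnr1 against the summed FPKM of ventral striatum markers (left) and of Mgll against that of astrocyte markers (right), both axes from 0, with a point for each library and crosses for the 13 set-apart libraries. Both genes lie lower where the marker sum is higher.

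Of a list of 38 other genes of endocannabinoid signalling, 37 had a row and 34 were tested. Cnr2, the receptor known from immune cells, Trpv1 and Ces1d stayed under 1 FPKM in every library, at means of 0.0887 FPKM for Cnr2 and 0.0206 FPKM for Trpv1. In the 3 cocaine comparisons over the cycle and the 10 single time points, 0 of 34 genes were called in either direction. Between genotypes 1 of 34 was called over all pairs of groups (1.56% of all genes) and 0 of 34 at ZT3, after saline or after cocaine. This gene was Ptgs2, a cyclooxygenase that can oxidise 2-AG, at a low mean of 1.20 FPKM and with a log2 difference of 0.29 (adjusted p = 0.00912). Between dark and light 1 of 34 was called in iMSN-D2RKO after saline (9.38% of all genes), Gnai1, a G protein subunit coupled to CB1 (0.55, adjusted p = 0.0378), and 0 of 34 in each of the other 3 series. By JTK_CYCLE, 2 of 33 genes were rhythmic in WT after saline (9.81% of all genes), the lipid carriers Fabp7 (corrected exact p = 3.37e-04) and Fabp3 (0.00173), and 0 in the other 3 series.

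By role, the most abundant of these genes were Sgip1 (46.3 FPKM) and Cnrip1 (28.4 FPKM) among proteins that bind CB1, Gde1 (128 FPKM) and Plcb1 (57.8 FPKM) in synthesis, and Lypla2 (49.4 FPKM) and Ddhd2 (16.4 FPKM) among the lipid hydrolases listed under breakdown. The carriers Fabp5 (34.0 FPKM) and Fabp7 (19.6 FPKM) were above Faah and Napepld. Camk2b (414 FPKM) and Camk2a (319 FPKM), subunits of a kinase that acts on the lipase of Dagla, and the G protein subunits Gnao1 (294 FPKM) and Gnai2 (102 FPKM) had higher means than the receptor itself. The median dark minus light difference of the 34 genes was 0.13 in WT after saline and 0.13 after cocaine, beside -0.10 and -0.13 for the 8 members and 0.048 and 0.060 for all tested genes. In iMSN-D2RKO it was 0.025 after saline and 0.010 after cocaine, beside -0.29 and -0.019 for the members and 0.020 and 0.014 for all tested genes.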

How the data were processed

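Total RNA of ventral striatum punches was made into stranded poly(A) libraries and sequenced by the authors as single-end reads, which they aligned to mm10 with TopHat and Bowtie2. The submitters' processing notes name CASAVA 1.8.2, Bowtie and Cuffnorm. The deposited values are FPKM per gene, computed by the authors with Cufflinks, Cuffmerge, Cuffquant and Cuffnorm. The annotation release and Cuffnorm's scaling option are not given in the sources used here, and neither are read numbers, so the depth is unknown and precision was taken from the 3 replicates. The table holds 72 columns, of which 6 repeat the ZT3 libraries with identical values, which leaves 66. The table holds no counts, so no count model was used.

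Genes that reached 1 FPKM in 1 or more libraries were kept and analysed as log2(FPKM + 1) with limma 3.58.1 (trend) in R 4.3.3, in one fit of 22 groups, two-sided, and p-values were adjusted by Benjamini-Hochberg across every gene in the fit. JTK_CYCLE was run on FPKM per series, with Dixon's test leaving out at most 1 replicate per time point (critical value 0.97) and Bonferroni correction over period and phase. The phase is counted in hours from ZT3. Both were tested on simulated data first. Rhythm differences were tested with a cosine and sine of 24 h in limma, between treatments and between genotypes after cocaine without ZT3. Alternatives covered the pseudocount, the low-value filter, scaling, a replicate block, left-out libraries, the first axis as a covariate, a cosinor and the JTK_CYCLE threshold. Symbols were matched exactly to the table's names, and promoters and coordinates came from RefSeq on GRCm38.p6. All 8 members are named. Other endocannabinoid genes are named where called or among the 2 highest of their role, and the 3 most similar genes per member are given. The members, lists and tests were chosen with earlier results of these data known. Figures were drawn with matplotlib 3.10.9 in Python 3.11.15. Of the marker lists, those of interneurons (723 to 3972 FPKM in sum), microglia (138 to 281 FPKM), endothelial cells (74.8 to 189 FPKM), ependyma and choroid plexus (48.6 to 1354 FPKM) and oligodendrocytes (1992 to 6048 FPKM) were present in every library, and the erythrocyte list had a row for 1 of 4 genes (0.569 to 3.03 FPKM).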

Additional observations from a re-analysis of the deposited data

How the results depend on the processing

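Of 210 recomputed counts of called members over 18 results, 176 stayed within 1.5 times the main count and 34 did not. A main count of 0 that stayed at 0 is among the 176. Where the main count was above 0 it was less stable. It moved in 7 of 12 alternatives for dark against light in WT after cocaine. For rhythm it moved in 6 of 11 in WT after saline, 7 of 11 in WT after cocaine and 3 of 11 in iMSN-D2RKO after cocaine. The counts for the mean cocaine effects, their difference between genotypes, the 4 genotype comparisons, the dark and light comparison in WT after saline and the rhythm differences were 0 in every alternative run. The cause of the other changes was not tested.

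For dark against light in WT after cocaine (1 member called), the count was 0 without a filter on low values, 0 with FPKM scaled to a common sum, 0 with the first axis as a covariate, 3 without the 13 set-apart and the 2 extreme libraries (Dagla, Daglb and Abhd6), and 0 to 0 without a replicate. In iMSN-D2RKO after saline (0 called) it was 1 at a common sum (Abhd6), 1 without the 13 and 1 without the 13 and 2 (Cnr1 in both), and 0 to 3 without a replicate, with Mgll, Faah and Abhd12 called without replicate 2. In iMSN-D2RKO after saline the count stayed at 0 in 8 of 12 alternatives, the one with the first axis as a covariate among them. Of all genes, 9.38% were called there in the main run, and 0.0137% for cocaine in iMSN-D2RKO at ZT7. The shares at a common sum and without a replicate are not given here, so these counts do not set the members apart from other genes. In iMSN-D2RKO after cocaine the count was 1 without the 13 and 2 libraries. Single time points gave 2 calls without the 13 and 2, Dagla (-1.04) and Daglb (-0.38) in WT at ZT19, where 28.4% of genes were called and 1 library per treatment was left, assumed to vary like the other groups (the cocaine one, replicate 2, had the highest first-axis score of the 53 libraries), and 0 to 1 without a replicate (Abhd12 in iMSN-D2RKO at ZT7, without replicate 3).

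For rhythm in WT after saline (1 called) the count was 2 with a limma cosinor and 2 at p under 0.05 (Cnr1 and Faah), 0 without ZT3 and 0 to 0 without a replicate. In WT after cocaine (2 called) it was 1 with the cosinor (Daglb), 0 without the 13, 1 without the 13 and 2 and 1 with the first axis removed (Dagla in both), and 0 to 1 without a replicate. In iMSN-D2RKO after saline (0 called) it was 1 at p under 0.05 (Mgll), 1 without the 13 and 1 without the 13 and 2 (Cnr1 in both), and 0 to 1 without a replicate. In iMSN-D2RKO after cocaine (1 called) it was 0 with the cosinor, 0 without ZT3 and 0 to 1 without a replicate. At a corrected exact p under 0.05 (JTK_CYCLE), 23.7% of all genes passed in WT after saline and 11.3% in iMSN-D2RKO after saline. The share of all genes called with the cosinor is not given here. With single libraries left out, p reached 0.0108 for Faah in WT after saline (WT replicate 3 at ZT7 or replicate 1 or 3 at ZT15) and 0.0154 for Abhd6 in iMSN-D2RKO after cocaine (replicate 1 or 2 at ZT11).

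The difference between series of the dark and light contrast, tested after seeing the data, called 0 members with all libraries and 0 without the 13. Without the 13 and 2 libraries, Dagla and Daglb were called between genotypes after cocaine (0.53, adjusted p = 0.0144, and 0.23, adjusted p = 0.0481, with 9.04% of genes called) and between treatments in WT (-0.50, adjusted p = 0.0250, and -0.25, adjusted p = 0.0394, with 8.57%).

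With the replicate number as a block, the count in WT after cocaine for dark against light stayed at 1 (Daglb, adjusted p = 0.0487) and no other call changed. Libraries of the same number did not deviate together (mean correlation -0.0040, against 0.0031 for other numbers, and 24 of 66 libraries correlated best with their own number), so the numbers were not read as a pairing.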

Other observations

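iMSN-D2RKO replicate 2 at ZT3 held the highest Faah (16.5 FPKM) and Napepld (6.80 FPKM) of all 66 libraries and an Abhd6 of 24.5 FPKM and a Dagla of 31.6 FPKM, and it was not among the set-apart libraries. iMSN-D2RKO replicate 3 at ZT19 after cocaine had the second highest Napepld, 6.23 FPKM, with 10.7 FPKM of Faah. WT replicate 3 at ZT15 after cocaine had the highest Dagla (54.5 FPKM) together with the lowest Abhd12 (99.0 FPKM) and Abhd6 (14.1 FPKM). iMSN-D2RKO replicate 1 at ZT7 after saline had the highest Mgll and Abhd12 together with the lowest Napepld (0.947 FPKM). In that library Abhd12 stood at 332 FPKM and Mgll at 73.8 FPKM.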
